A study of Homo sapiens with 2 samples.

Results

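MHC class I presentation was followed through 9 genes in the human cell line MDA-MB-231, which was established from a triple-negative breast cancer. The genes were chosen by symbol: the heavy chains HLA-B, HLA-C, HLA-E and HLA-F, the light chain B2M, the peptide transporter TAP1 and TAP2, its partner TAPBP, and the transactivator NLRC5. Each of the 9 symbols matched 1 of the 20289 genes of the deposited table. The study made 1 poly(A) RNA library from cells given an siRNA against the long non-coding RNA USP30-AS1 (19569214 counts) and 1 from cells that received a negative control siRNA (23287817 counts), and asked how gene expression differs between them. Both libraries come from the same line, and neither carries any other labelled change. The siRNA sequence, its dose and the time after transfection are not given in the sources used here. With 1 library per group there is no replicate check and no test, so every difference below compares these 2 libraries, and every interval covers counting error only.

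MHC class I molecules show peptides from inside the cell to CD8+ T cells. The proteasome cuts proteins into peptides, TAP1 and TAP2 carry the peptides into the endoplasmic reticulum, and TAPBP (tapasin) holds the empty heavy chain and B2M next to the transporter while a peptide is loaded. NLRC5 enters the nucleus and switches on the heavy chain, B2M and TAP1 genes, and interferons raise most genes of the pathway. Loss of class I expression is a known way for tumour cells to escape T cells.

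The library labelled for USP30-AS1 siRNA is called the knockdown library here. Its column in the deposited table is named Si-179. It was assigned from the title of the table, which names Si-NC and USP30-AS1, and from the other column, Si-NC, which matches the control label. Counts of USP30-AS1 are not analysed here, and the depth of its silencing is therefore unknown. The line's markers VIM, CD44, KRT18 and KRT8 summed to 2275 FPKM (fragments scaled to transcript length and sequencing depth) in the knockdown library. In the control library they summed to 1488 FPKM. All 4 were higher in the knockdown library, 3 of them by 1.5-fold or more, with CD44 the largest at 2.55-fold. Of all genes with a mean of at least 50 counts, 6.1% were higher by 1.5-fold or more. ESR1, PGR and CDH1 had at most 13 counts in each library, while ERBB2 was detected at 19.3 and 16.3 FPKM. Of the leukocyte markers, PTPRC had 0 counts in the knockdown and 2 in the control library, and CD3E and NKG7 had 0 in both. CD14 had 42 counts in the knockdown and 40 in the control library, and CD68, a lysosomal protein that is not restricted to leukocytes, had 1160 and 1060 counts (48.4 and 30.2 FPKM). The 8 leukocyte markers summed to 49.9 FPKM in the knockdown and 31.8 FPKM in the control library, nearly all of it CD68, and their part in the results was not tested. A difference in RNA per cell cannot be told apart from a difference in the number of expressing cells in such bulk libraries.

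Of the 9 genes, 7 have an entry in the RefSeq promoter table used here (build GRCh38.p14), which runs from 250 bases before to 50 bases after the annotated start. HLA-E and NLRC5 are not shown. The table was searched on both strands for TTTC, any 2 bases and TTTC again, the core of the interferon-stimulated response element. This core was present in 5 of the 7, namely HLA-F, B2M, TAP1, TAP2 and TAPBP, and in 3.57% of all 35116 promoters in the table. CCAAT, the letters of the Y box, was present in HLA-B, HLA-C, HLA-F, B2M and TAP1 and in 34.6% of all promoters. TGACG, part of the X2 box, was present in HLA-B, HLA-C, B2M and TAP2 and in 24.6% of all promoters. GGGGA, any base and TCCC, a kappaB-like enhancer, was present in HLA-B and in 0.424% of all promoters. The promoters of TAPBP, the member with the largest difference past the count floor, and of TAP1, B2M and HLA-B, which differed little, follow 5′ to 3′, with the interferon core and the kappaB-like letters in capitals.
TAPBP promoter: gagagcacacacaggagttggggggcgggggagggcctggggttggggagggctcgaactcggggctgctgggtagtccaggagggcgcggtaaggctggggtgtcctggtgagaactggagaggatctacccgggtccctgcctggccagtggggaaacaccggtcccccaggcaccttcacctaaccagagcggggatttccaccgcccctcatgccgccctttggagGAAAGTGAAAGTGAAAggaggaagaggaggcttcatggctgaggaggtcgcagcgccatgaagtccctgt
TAP1 promoter: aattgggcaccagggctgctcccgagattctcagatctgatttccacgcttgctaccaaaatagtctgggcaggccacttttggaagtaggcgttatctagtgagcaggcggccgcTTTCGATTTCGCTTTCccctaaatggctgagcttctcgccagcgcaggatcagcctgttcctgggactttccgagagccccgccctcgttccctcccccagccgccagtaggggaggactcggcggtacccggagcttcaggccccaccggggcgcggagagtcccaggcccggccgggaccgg
B2M promoter: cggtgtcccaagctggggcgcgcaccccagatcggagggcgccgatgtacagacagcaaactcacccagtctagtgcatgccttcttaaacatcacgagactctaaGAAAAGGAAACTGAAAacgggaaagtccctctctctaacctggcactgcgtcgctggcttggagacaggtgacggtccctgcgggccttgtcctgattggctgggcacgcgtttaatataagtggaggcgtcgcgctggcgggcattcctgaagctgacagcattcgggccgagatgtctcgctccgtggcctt
HLA-B promoter: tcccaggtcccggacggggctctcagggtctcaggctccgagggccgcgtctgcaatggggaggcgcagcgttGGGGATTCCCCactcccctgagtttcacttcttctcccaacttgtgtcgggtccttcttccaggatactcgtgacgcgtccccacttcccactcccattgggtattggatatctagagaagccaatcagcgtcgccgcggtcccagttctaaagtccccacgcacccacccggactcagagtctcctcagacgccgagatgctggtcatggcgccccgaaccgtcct
The TAPBP promoter (chr6:33314029-33314328, minus strand) holds 2 overlapping copies of the interferon core, starting at -20 and -14 from the annotated start. The TAP1 promoter (chr6:32853655-32853954, minus strand) holds 2 overlapping copies starting at -134 and -128, and the second annotated start of TAP1 holds none. The B2M promoter (chr15:44711267-44711566, plus strand) holds 2 overlapping copies starting at -144 and -138. The HLA-B promoter (chr6:31357130-31357429, minus strand) holds no copy with these letters, and its kappaB-like letters match on both strands in an overlapping stretch that starts at -177. None of these interferon and kappaB-like matches overlapped CCAAT or TGACG. These matches describe letters in a window and say nothing of factor binding in these cells.

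The levels of heavy chains, light chain and peptide transporter were close in the 2 libraries, whereas TAPBP and NLRC5 were lower in the knockdown library. TAPBP was 1.54-fold lower and NLRC5 1.45-fold lower. The other 6 genes past the count floor of 50 (the mean of both libraries) had log2 ratios between -0.03 and 0.05. A log2 ratio here is the knockdown over the control level in TMM-scaled counts relative to library size (CPM), with 0.5 CPM added to each. The floor was passed by 8 of the 9 genes, and HLA-F lay under it. Of these 8, 0 were at least 1.5-fold higher (6.1% of the 11530 genes past the floor) and 1, TAPBP, was at least 1.5-fold lower (7.04% of those genes), a count near the background. At 2-fold, 0 were higher (1.55%) and 0 lower (1.6%). The median log2 ratio of the 8 was -0.02, beside -0.004 over all genes past the floor, whose middle 90% ran from -0.68 to 0.63.

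**Figure D1:**
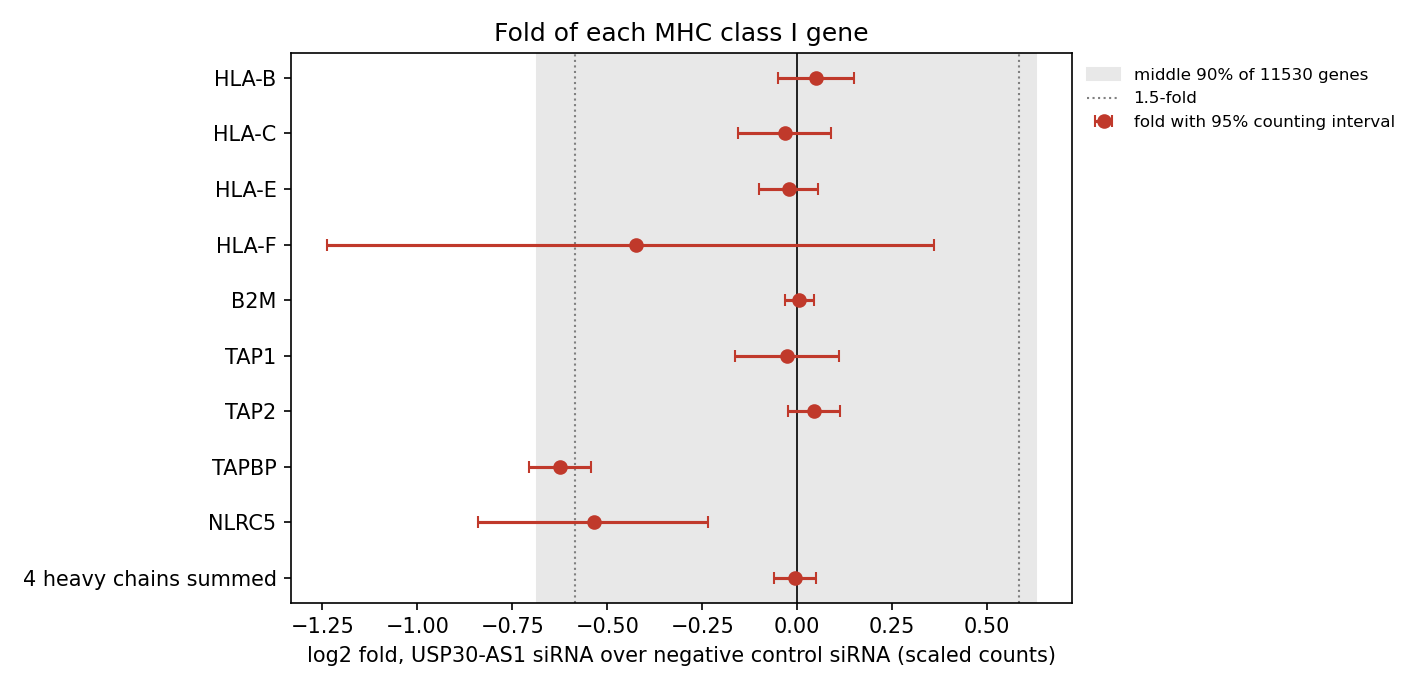
Fold of each gene on a log2 scale (x axis, knockdown over control, TMM-scaled counts with no added CPM), with bars for the 95% counting interval from 1 library per group. The grey band is the middle 90% of the log2 ratios of 11530 genes and the dotted lines mark 1.5-fold; TAPBP (-0.62) and NLRC5 (-0.53) lie left of 0 with intervals that do not reach it, and the interval of HLA-F is the widest.

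HLA-B and HLA-C are classical heavy chains, which bind the peptide and face the T-cell receptor. HLA-B had 1463 counts (76.0 CPM) in the knockdown and 1740 counts (73.5 CPM) in the control library, a fold of 1.03 (95% exact Clopper-Pearson counting interval 0.965 to 1.11). HLA-C had 988 counts (51.3 CPM) in the knockdown and 1244 (52.5 CPM) in the control library, a fold of 0.978 (0.898 to 1.06). Both intervals include 1. HLA-E, a non-classical heavy chain that shows leader peptides of other class I chains to NK cells, had 2405 counts (125 CPM) and 3007 counts (127 CPM) in the knockdown and control libraries, a fold of 0.984 (0.933 to 1.04). HLA-F, another non-classical heavy chain, had 23 counts in the knockdown and 38 in the control library, a fold of 0.745 (0.424 to 1.28). Its interval includes both 1 and a 2-fold decrease, so neither can be excluded at this depth.

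Reads of heavy chain genes can be assigned to the wrong copy because the genes are near-identical in parts, so single heavy chain values are uncertain. Summed over the 4 genes, heavy chain counts were 4879 (253.6 CPM) in the knockdown and 6029 (254.6 CPM) in the control library. The fold of this sum was 0.996 (0.959 to 1.03). In the sum, reads exchanged among these 4 genes cancel out. HLA-G, another non-classical heavy chain gene, had 0 counts in both libraries. Exchange of reads with heavy chain genes outside this sum was not tested.

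B2M, the invariant light chain that every classical class I molecule needs to reach the surface, was the most abundant of the 9 genes. It had 10602 counts (551 CPM) in the knockdown and 12997 counts (549 CPM) in the control library, a fold of 1.00 (0.979 to 1.03). By FPKM it ranked 109 among 14743 genes with a value above 0 in the knockdown library and 104 among 15043 in the control library. Per length, B2M stood at 575 FPKM beside 130.8 FPKM for the 4 heavy chains together in the knockdown library, and at 594 FPKM beside 135 FPKM in the control library. The quotient of these levels was 4.40 in the knockdown and 4.39 in the control library, so light and heavy chain transcripts kept nearly the same proportion.

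TAP1 and TAP2 form the ATP-driven peptide pump of the endoplasmic reticulum. TAP1 had 794 counts (41.3 CPM) in the knockdown and 996 counts (42.1 CPM) in the control library, a fold of 0.981 (0.893 to 1.08). TAP2 had 3231 counts (168 CPM) in the knockdown and 3857 counts (163 CPM) in the control library, a fold of 1.03 (0.984 to 1.08). The subunits pair with each other, and TAP1 had 24.6 counts per 100 counts of TAP2 in the knockdown library, against 25.8 in the control library. In the GENCODE 29 annotation, TAP1 lies within the bounds of PSMB9 on the opposite strand, but their exons share 0 bases. Of the 4805 exonic bases of TAP1, 456 are shared with the non-coding gene PSMB8-AS1 on the opposite strand, and whether the counting used strand is not stated in the sources used here. TAP2 shares 2064 of its 6390 exonic bases with a read-through gene on the same strand (ENSG00000250264), which had 91 counts in the knockdown and 51 in the control library, so the split of reads between them is uncertain.

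TAPBP encodes tapasin, which bridges TAP to the empty class I molecule and favours the exchange of weakly bound peptides for tightly bound ones. It had 1857 counts (96.5 CPM) in the knockdown and 3522 counts (149 CPM) in the control library, 1.54-fold lower (1.46 to 1.63; log2 ratio -0.62). In FPKM it stood at 33.3 in the knockdown and 51.5 in the control library, a log2 ratio of -0.63. Of all genes past the floor, 6.11% had a lower log2 ratio. Quotients within a library need no scaling between libraries, but they reuse the same TAPBP counts and are not separate support. TAPBP had 234 counts per 100 counts of TAP1 in the knockdown library, against 354 in the control library, a quotient of 0.661 (0.592 to 0.739). Per 100 counts of TAP2, TAPBP had 57.5 counts in the knockdown and 91.3 in the control library (quotient 0.629, 0.585 to 0.678). Per 100 counts of B2M it had 17.5 counts in the knockdown and 27.1 in the control library (quotient 0.646, 0.607 to 0.688), while the corresponding quotients of HLA-B, HLA-C, HLA-E, TAP1 and TAP2 lay between 0.974 and 1.03, with intervals that include 1. TAPBPL, a relative of tapasin that also edits peptides, had 45 counts in the knockdown and 59 in the control library (log2 ratio -0.08). At these low TAPBPL counts, the quotient of TAPBP to TAPBPL was 0.691 (0.459 to 1.05), with an interval that includes 1.

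NLRC5, the class I transactivator, was transcribed at a low level. It had 143 counts (7.43 CPM) in the knockdown and 255 counts (10.8 CPM) in the control library, 1.45-fold lower (1.18 to 1.79; log2 ratio -0.51). This lies short of 1.5-fold, and the interval includes it. A lower log2 ratio was seen in 9.51% of all genes past the floor. Of the genes that NLRC5 is known to act on, HLA-B, HLA-C, HLA-E, B2M and TAP1 had log2 ratios between -0.03 and 0.05 in the same libraries. HLA-F, the heavy chain under the floor, had a log2 ratio of -0.31, and the interval of its fold (0.424 to 1.28) includes 1. An effect of NLRC5 on these genes was not tested.

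Ordered by FPKM, which corrects for transcript length, the genes kept the same places in both libraries except for TAPBP and HLA-B. In the knockdown library B2M was followed by HLA-B (48.7 FPKM, counting interval 46.2 to 51.2) and HLA-E (48.2, 46.3 to 50.2), and then by TAPBP (33.3, 31.8 to 34.8) and HLA-C (32.9, 30.8 to 35.0). Within each of these pairs the intervals overlap. In the control library the place after B2M was held by TAPBP (51.5 FPKM, 49.8 to 53.3), followed by HLA-E (50.7, 48.9 to 52.5) and HLA-B (48.6, 46.4 to 51.0), 3 genes with overlapping intervals, and then by HLA-C (34.8, 32.9 to 36.7). TAPBP thus ranked 4 of 9 in the knockdown and 2 of 9 in the control library. TAP2 (29.7 FPKM in each library), TAP1 (15.7 FPKM in the knockdown, 16.7 in the control), NLRC5 (1.76 and 2.58 FPKM) and HLA-F (1.01 and 1.24 FPKM) closed the order in both.

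**Figure D2:**
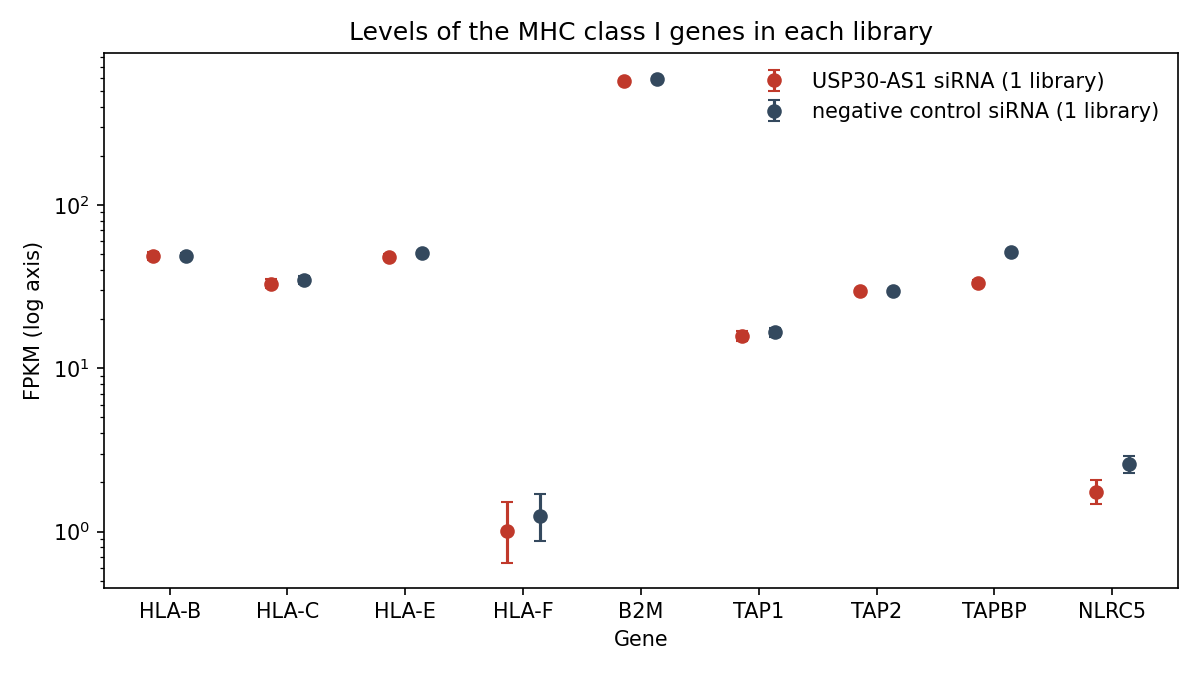
FPKM of each gene (y axis, log scale) in the knockdown library (red, left) and the control library (dark, right), 1 library each, with 95% exact Poisson counting intervals. B2M stands at 575 FPKM in the knockdown and 594 FPKM in the control library, HLA-F and NLRC5 stand under 3 FPKM, and the points of TAPBP are the farthest apart among the genes above 10 FPKM.

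By position, 7 of the 9 genes lie in the MHC on chromosome 6, from HLA-F (start 29722775) to TAPBP (end 33314387; GRCh38, GENCODE 29). TAPBP spans 33299694 to 33314387 on the minus strand. B2M lies on chromosome 15 (44711487 to 44718877, plus strand) and NLRC5 on chromosome 16 (56989485 to 57083531, plus strand). Between the outer bounds on chromosome 6, 76 other genes passed the floor, with a median log2 ratio of 0.05. Of these, 3 were higher (3.95%, beside 6.1% of all genes past the floor) and 7 were lower (9.21%, beside 7.04%) by 1.5-fold or more in the knockdown library.

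**Figure D3:**
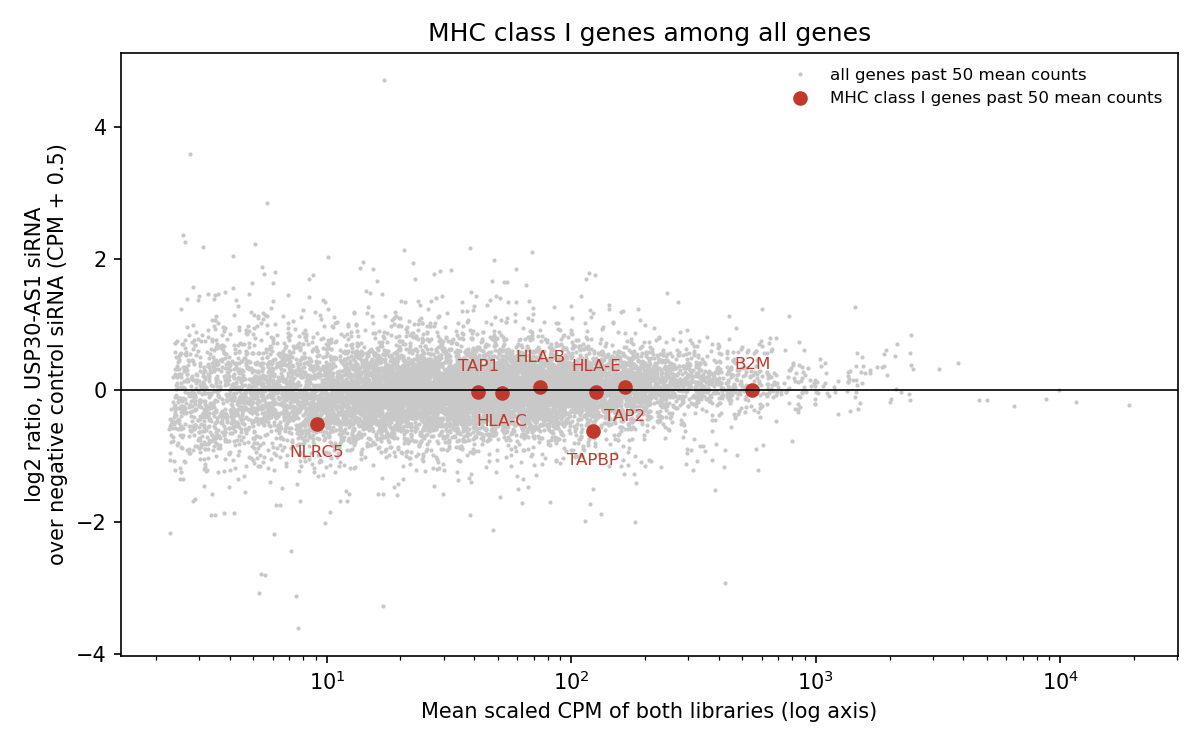
Log2 ratio of knockdown over control (y axis, CPM + 0.5) against the mean scaled CPM of both libraries (x axis, log scale) for 11530 genes (grey) and the 8 class I genes past the floor (red). The genes cover a wide range of levels, and TAPBP and NLRC5 lie at -0.62 and -0.51 while the other 6 lie near 0.

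Genes that work beside these 9 were described from 9 lists with 72 genes, of which 52 passed the floor. In all, 7 were at least 1.5-fold higher in the knockdown library (13.5%, beside 6.1% of all genes past the floor). At least 1.5-fold lower were 2 (3.85%, beside 7.04%). Of the 7 higher genes, 4 came from 1 list, that of class I-like molecules and NKG2D ligands. The lists were chosen with earlier results of these data known, so these shares are description only. The median log2 ratio of the 52 genes was 0.07. The 5 immunoproteasome genes, whose products replace proteasome subunits or activate it under interferon, lay between -0.08 and 0.23, with the activator subunit PSME2 at 252 FPKM in the knockdown and 211 FPKM in the control library. Of the constitutive catalytic subunits, PSMB5 had a log2 ratio of -0.04, and the median of the 3 genes was 0.24. Of 9 genes of folding and peptide trimming in the endoplasmic reticulum, 1 was at least 1.5-fold higher and 0 lower. It was ERAP1, an aminopeptidase that trims peptides to class I length, with 1728 counts in the knockdown and 1372 in the control library (1.55-fold higher, 1.44 to 1.67). Its log2 ratio was 0.63 in counts and 0.88 in FPKM. CALR, a chaperone of the loading complex, was the most abundant of this list at 509 FPKM in the knockdown and 435 FPKM in the control library (log2 ratio 0.27).

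Of the 13 listed transcription factors of class I genes, 12 passed the floor, with a median log2 ratio of -0.07. Of the 12, 8 lay below 0 and 4 above. By 1.5-fold or more, 1 was higher and 0 lower, beside 6.1% and 7.04% of all genes past the floor. ATF1, a relative of CREB1 that binds the X2 box type of site, had 633 counts in the knockdown and 460 in the control library (1.69-fold higher, 1.5 to 1.91). The interferon gamma receptor, its kinases and their inhibitor gave 4 genes past the floor, none of them past 1.5-fold. Of these 4, 3 lay below 0 and 1 above, and IFNGR1 had a log2 ratio of -0.13. The 3 core genes of Polycomb repressive complex 2, which can silence class I genes, had log2 ratios between 0.27 and 0.55. EZH2, its methyltransferase, stood at 44.1 FPKM in the knockdown and 36.0 FPKM in the control library.

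Of 7 genes that act on class I molecules after synthesis, 1 was higher and 1 lower by 1.5-fold or more. Of all genes past the floor, 6.1% were higher and 7.04% lower by that much. MARCHF4, a membrane ubiquitin ligase that can remove class I from the surface when overexpressed, had 317 counts in the knockdown and 87 in the control library (4.49-fold higher, 3.53 to 5.75). SUSD6, which works with TMEM127 and the ligase WWP2 to send class I to lysosomes, had 190 counts in the knockdown and 367 in the control library (1.57-fold lower, 1.31 to 1.88). Its partner TMEM127 had a log2 ratio of -0.21.

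Of 15 listed genes for class I-like molecules and NKG2D ligands, 9 passed the floor, with a median log2 ratio of 0.53. Of these 9, 4 were higher and 1 lower by 1.5-fold or more, beside 6.1% and 7.04% of all genes past the floor. NKG2D ligands mark stressed cells for NK cells and do not present peptides. ULBP3, such a ligand, had 488 counts in the knockdown and 294 in the control library (2.04-fold higher, 1.76 to 2.37). RAET1E was 1.60-fold higher (1.31 to 1.96) and RAET1G 1.76-fold higher (1.25 to 2.48), while MICA, the most abundant ligand of the list, was 1.20-fold higher (1.1 to 1.31). The ULBP and RAET1 genes are close copies of each other, and some of their counts were not whole numbers, so single values are uncertain. Summed over the 8 MIC, ULBP and RAET1 genes, a set picked after their values were seen, counts were 3107 (161 CPM) in the knockdown and 2750 (116 CPM) in the control library, a fold of 1.39 (1.32 to 1.46). PROCR, the endothelial protein C receptor with a class I-like fold, was 1.70-fold higher (1.52 to 1.90). MR1, which presents vitamin B metabolites to MAIT cells and also pairs with B2M, had 131 counts in the knockdown and 372 in the control library (2.31-fold lower, 1.89 to 2.84). Its log2 ratio was -1.15 in counts and -0.85 in FPKM. The 12 genes of the class II pathway, which serves antigen-presenting cells, had 0 members past the floor and summed to 1.98 FPKM in the knockdown and 3.25 FPKM in the control library. HLA-DMA, the highest of them by mean FPKM of both libraries, had 10 counts in the knockdown and 26 in the control library.

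**Figure D4:**
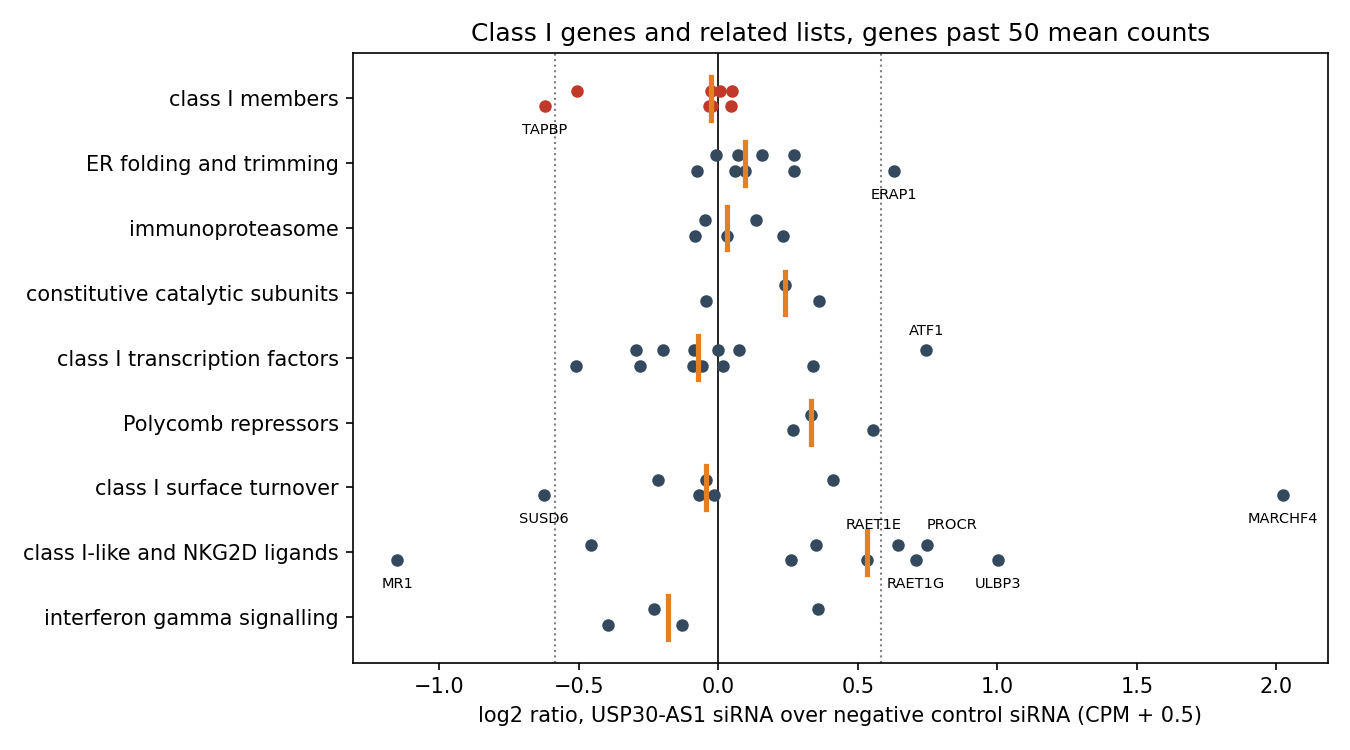
Log2 ratio of knockdown over control (x axis, CPM + 0.5) for the class I genes (red) and for genes of related lists (dark) past 50 mean counts, 1 point per gene, with the median of each list as an orange bar and 1.5-fold as dotted lines. Most class I genes sit near 0, MARCHF4 lies at 2.02 and MR1 at -1.15, and the class I-like and NKG2D ligand list has its median at 0.53.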

How the data were processed

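The table gives 2 kinds of level per library. Counts are the authors' estimated counts for each gene, with no normalization (RSEM is named in the submitters' processing notes, and 11.4% of knockdown and 12.0% of control values were not whole). The FPKM values were normalized by the authors to transcript length and to sequencing depth, as the file headers name the unit. The authors' deposited log2 fold change is the ratio of FPKM columns with 0 replaced by 0.001, and the authors' deposited p-values rest on no replicate and were not used. Build GRCh38 and the tools RSEM, HISAT2, StringTie 1.3.1 and fastp 0.18.0 are listed in the submitters' processing notes; their roles and the annotation release are not given in the sources used here.

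Counts were rounded, divided by library totals and scaled by TMM factors of 0.983 (knockdown) and 1.02 (control) computed in R 4.3.3 with edgeR 4.0.16. Each log2 ratio adds 0.5 CPM to each level; folds do not. Genes with a mean of at least 50 counts were compared by folds of 1.5 and 2. Folds carry 95% exact (Clopper-Pearson) intervals, and quotients within libraries exact conditional ones. PCR copies are not independent molecules. Alternatives were library totals alone, DESeq2 1.42.0 size factors, FPKM, other pseudocounts and floors, totals without mitochondrial genes, and summed heavy chains. The steps were checked on simulated Poisson counts with planted differences. These hold no spread between replicate libraries, so the check covers the calculation only. The members and lists were chosen with earlier results of these data known. Of the related lists, genes past 1.5-fold and the most abundant gene are named, though not every gene this rule takes is reported here; TAPBPL, CD3E and others beyond this rule were named after their values were seen. The lists of endothelial and fibroblast markers summed to 1.37 and 7.96 FPKM in the knockdown and 3.02 and 10.1 FPKM in the control library. Gene positions are from GENCODE 29. Python 3.11.15 with scipy 1.17.1 was used.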

Additional observations from a re-analysis of the deposited data

How the results depend on the processing

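The counts of class I genes past 1.5-fold and 2-fold were the same under each alternative scaling, pseudocount and floor and in FPKM; they were not recounted with the heavy chains summed. At a floor of 200 mean counts NLRC5 (mean 199) was no longer compared. Over the alternatives, the log2 ratio of TAPBP ran from -0.67 to -0.61 and that of NLRC5 from -0.55 to -0.50, and the median of the class I genes from -0.08 to -0.02. The ratios of B2M and TAP2 changed sign between settings, within -0.05 to 0.02 and -0.004 to 0.05. Scalings moved the median of all genes by at most 0.05 in size. In the related lists, 4 genes in place of 2 were at least 1.5-fold lower with no floor, and 3 in FPKM. At least 1.5-fold higher were 8 genes in place of 7 with no floor, and 6 at a floor of 200 mean counts. Scaling by library totals alone also left 6 in place of 7, since ERAP1 then had a log2 ratio of 0.580, just short of 1.5-fold. With library totals alone, and with totals without mitochondrial genes, 1 gene in place of 2 was at least 2-fold higher, since ULBP3 lies at that limit. In FPKM 0 genes in place of 1 were at least 2-fold lower, with MR1 at -0.85, and the cause was not tested. No paired analysis was possible because each group has 1 library, and for the same reason no replicate could be left out. Depth limits HLA-F above all, with 23 and 38 counts. Where a gene has 0 counts, its level can be as high as 0.153 CPM in the knockdown or 0.129 CPM in the control library (3 counts).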

Other observations

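The antigen processing and presentation pathway of the deposited annotation holds 77 genes of this table, among them 8 of the 9 class I genes (all but NLRC5). Without those 8, 28 genes passed the floor, with a median log2 ratio of 0.18. Of the 28, 3 were higher and 3 lower by 1.5-fold or more in the knockdown library. Over all genes past the floor, 6.1% were higher and 7.04% lower by that much. The genes named here were chosen after their values were seen. The chaperone HSP90AA1 had 60641 counts in the knockdown and 41746 in the control library (1.79-fold higher, 1.77 to 1.81), and IFI30, a thiol reductase of lysosomes that prepares antigens for class II, was 1.62-fold higher (1.45 to 1.82). The third higher gene was the read-through gene over TAP2 (ENSG00000250264). KLRC2 and KLRC3, C-type lectin receptor genes known from NK cells, where KLRC2 encodes a receptor for HLA-E, had 105 and 23 counts in the knockdown and 441 and 137 in the control library. They were 3.41-fold (2.75 to 4.26) and 4.84-fold lower (3.10 to 7.89). They are close copies of each other, so the split of reads between them is uncertain. CD8A, the T-cell coreceptor for class I, had 31 counts in the knockdown and 77 in the control library, while the leukocyte gene PTPRC had 0 and 2.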
